A study of Mus musculus with 6 samples.

Results

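The genes described here are 52 transcripts of the cell division program, 24 that act in S phase and 28 that act in mitosis, out of 53379 gene identifiers counted in splenic T follicular helper (Tfh) cells. They are a list of gene names, and the rule sets no level or fold change, though the list was drawn up with earlier results of these data known. Tfh cells are the CD4+ T cells that help B cells in the follicle. Each library came from 1 female mouse immunized at 6 to 8 weeks of age with NP-CGG in complete Freund's adjuvant, and the spleen was taken on day 7. There were 3 control (CTL) mice and 3 *Prdm1*-CKO mice. *Prdm1*-CKO mice carried *Prdm1* fl/fl with CD11c-CRE, so *Prdm1* (Blimp-1) was deleted in CD11c-high dendritic cells and not by design in the Tfh cells that were sequenced. CTL mice were either *Prdm1* fl/fl without CRE or *Prdm1* +/+ with CD11c-CRE, and the labels do not say which of these each CTL mouse was. Titles of the second group read KO and its genotype field reads Blimp1 KD. Live TCRβ+CD4+CXCR5+PD1+ cells were sorted without a FOXP3 gate, so follicular regulatory T cells stayed in the sample.

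A cell that divides first licenses its DNA by loading the MCM helicase, then copies it in S phase with nucleotides made by ribonucleotide reductase and thymidylate synthase. It then enters mitosis when cyclin B and Cdk1 become active, and the anaphase-promoting complex ends mitosis by destroying cyclin B. S phase genes are switched on by E2F factors around the G1/S border, and mitosis genes peak later, in G2 and M, under B-Myb and FoxM1. Transcript levels of both groups are therefore widely read as a mark of cycling cells. Tfh cells divide in the first days after immunization while they settle in the follicle. In bulk RNA, more cycling cells and more of these transcripts per cycling cell cannot be told apart.

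Some letters in the promoters set the S phase and mitosis lists apart. The members were not chosen by sequence, but the motifs searched include ones already tied to such genes. The difference is therefore a description and no independent support for the lists. RefSeq promoters on GRCm38.p6, each from 250 bases before to 50 bases after a start site, were found for 21 of 24 S phase genes (23 promoters) and 23 of 28 mitosis genes (24 promoters). They were searched on both strands for the CHR element of mitosis genes (TTTGAA or TTCGAA), the CCAAT box (CCAAT), the E2F site (TTTGGCGC, TTTCCCGC, TTTCGCGC or TTTGCCGC) and the Sp1 box (GGGCGG). A CHR match lay in 19 of 24 mitosis promoters (79.2%) and in 4 of 23 S phase promoters (17.4%), against 19.2% of all 32851 promoters. The 2 promoters of *Ect2* overlap and both count here. By gene, 18 of 23 mitosis genes had a CHR match. The CCAAT box alone was common in both lists, in 79.2% of mitosis and 65.2% of S phase promoters, against 37.4% of all. Both a CHR and a CCAAT match were present in 17 mitosis promoters (70.8%) and 4 S phase promoters (17.4%), against 7.52% of all. E2F matches went the other way, with 7 S phase promoters (30.4%) and 1 mitosis promoter (4.17%), against 2.26% of all. The Sp1 box was in 87.0% of S phase and 87.5% of mitosis promoters, against 35.7% of all. Of the E2F matches over all promoters 12.2% overlapped an Sp1 match, and of the CHR matches 0.661% overlapped a CCAAT match. A match is only a string of letters and says nothing of binding. The genes without a RefSeq promoter entry used here were *Mcm4*, *Gins2*, *Ccne2*, *Ccna2*, *Cdc25c*, *Aurkb*, *Kif20a* and *Tpx2*.

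The first set of sequences shows these letters for mitosis genes. *Cdc20*, *Mki67* and *Top2a* are shown because CHR and CCAAT matches stand together upstream of their starts, *Ccnb2* because it had the highest level per length among the mitosis genes, and *Bub1b* and *Ccnb1* because they had the smallest p between the groups among mitosis genes. Each run is at most 200 bases upstream of the RefSeq start and stops before any base that GENCODE gives as exon. Of the 29 CHR matches in mitosis promoters 14 lay after the start, outside such runs. Among them were a match 40 bases after the start in *Bub1b* and 1 at 4 bases after it in *Ccnb2*. The CHR sites of *Ect2* were counted in each of its 2 overlapping promoters. Capitals mark CHR, CCAAT and E2F matches on either strand.
Cdc20 (chr4:118437353-118437543, minus strand): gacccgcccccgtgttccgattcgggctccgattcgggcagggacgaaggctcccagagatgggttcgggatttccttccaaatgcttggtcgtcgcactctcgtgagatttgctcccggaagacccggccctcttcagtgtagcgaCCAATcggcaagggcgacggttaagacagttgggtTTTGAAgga
Mki67 (chr7:135716380-135716579, minus strand): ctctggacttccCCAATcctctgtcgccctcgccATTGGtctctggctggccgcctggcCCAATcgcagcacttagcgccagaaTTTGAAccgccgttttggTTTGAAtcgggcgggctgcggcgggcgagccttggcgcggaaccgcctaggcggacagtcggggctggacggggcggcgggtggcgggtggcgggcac
Top2a (chr11:99024190-99024389, minus strand): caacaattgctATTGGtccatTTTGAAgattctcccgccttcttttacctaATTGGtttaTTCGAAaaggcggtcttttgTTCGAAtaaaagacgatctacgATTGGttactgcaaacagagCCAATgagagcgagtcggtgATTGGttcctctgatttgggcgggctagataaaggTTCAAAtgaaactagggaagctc
Ccnb2 (chr9:70421555-70421754, minus strand): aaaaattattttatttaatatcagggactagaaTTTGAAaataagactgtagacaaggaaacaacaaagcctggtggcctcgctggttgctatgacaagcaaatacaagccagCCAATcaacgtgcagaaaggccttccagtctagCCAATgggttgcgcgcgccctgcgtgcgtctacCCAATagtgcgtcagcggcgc
Bub1b (chr2:118598011-118598210, plus strand): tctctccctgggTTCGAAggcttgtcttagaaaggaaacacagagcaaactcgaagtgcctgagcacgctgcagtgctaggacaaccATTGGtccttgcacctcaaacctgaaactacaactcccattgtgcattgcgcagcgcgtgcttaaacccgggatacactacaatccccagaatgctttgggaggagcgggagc
Ccnb1 (chr13:100786571-100786686, minus strand): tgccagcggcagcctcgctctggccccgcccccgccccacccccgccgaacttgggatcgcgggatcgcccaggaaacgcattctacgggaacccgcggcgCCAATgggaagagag

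The stretch of *Top2a* held 4 CHR and 5 CCAAT matches and that of *Mki67* held 2 and 3. *Ccnb1* had no CHR match in its whole 300-base window. The S phase counterparts are *Mcm5* and *Mcm6*, shown for their E2F matches, and *Uhrf1*, shown because it had the smallest p among S phase genes. *Uhrf1* has 2 RefSeq starts, and its second stretch carries 1 E2F match.
Mcm5 (chr8:75109309-75109508, plus strand): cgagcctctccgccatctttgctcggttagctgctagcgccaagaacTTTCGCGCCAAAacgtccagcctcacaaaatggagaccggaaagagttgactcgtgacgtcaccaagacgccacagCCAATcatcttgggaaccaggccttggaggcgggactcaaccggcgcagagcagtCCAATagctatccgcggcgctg
Mcm6 (chr1:128359706-128359905, minus strand): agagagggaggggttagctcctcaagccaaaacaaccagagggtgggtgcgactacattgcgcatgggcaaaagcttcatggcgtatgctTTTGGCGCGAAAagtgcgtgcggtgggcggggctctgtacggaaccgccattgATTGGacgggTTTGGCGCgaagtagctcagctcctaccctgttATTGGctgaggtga
Uhrf1 (chr17:56303137-56303320, plus strand): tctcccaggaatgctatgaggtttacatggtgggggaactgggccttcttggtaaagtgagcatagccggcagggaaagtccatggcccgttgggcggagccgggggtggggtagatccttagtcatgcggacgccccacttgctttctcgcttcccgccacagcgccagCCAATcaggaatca
Uhrf1 (chr17:56304113-56304312, plus strand): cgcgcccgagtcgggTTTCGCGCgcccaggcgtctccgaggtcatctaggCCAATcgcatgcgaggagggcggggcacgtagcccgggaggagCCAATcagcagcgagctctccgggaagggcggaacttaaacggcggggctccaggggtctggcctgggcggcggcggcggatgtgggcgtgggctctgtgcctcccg

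*Mcm6* held 3 E2F matches, 2 of them overlapping on opposite strands, and *Mcm5* held 2 that overlap in the same way. None of the S phase stretches shown held a CHR match.

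Libraries held 7147601 to 16973392 counts, with larger totals in *Prdm1*-CKO mice 1 and 3 and CTL mouse 1. Levels are CPM, counts scaled to library size with edgeR's TMM factors, and 14555 genes passed edgeR's expression filter, all 52 members among them. The lowest member count in any mouse was 21. CTL mouse 2 stood apart over all genes, with a mean correlation of 0.875 with the other mice, against 0.923 to 0.944 for the rest. Tfh markers *Cxcr5*, *Pdcd1*, *Bcl6*, *Icos* and *Il21* were all expressed. *Prdm1* itself was at 28.9, 30.0 and 27.5 CPM in CTL and 30.2, 30.8 and 30.9 CPM in *Prdm1*-CKO Tfh. These levels do not check the deletion, which was made in other cells. Values for single mice are given in the order of replicates 1, 2 and 3, and a number in parentheses after a gene's levels is its log2 fold change, *Prdm1*-CKO minus CTL.

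Both lists were expressed at similar levels per length. The median over S phase genes was 21.6 RPKM (reads scaled to library size and exon length, mean of 6 mice), with a range from 2.47 for *E2f1* to 105 for *Mcm6*. Among mitosis genes the median was 18.8 RPKM, from 2.03 for *Anln* to 84.2 for *Ccnb2*. The MCM helicase took 4 of the 6 highest places among S phase genes, *Mcm6* (105 RPKM), *Mcm3* (71.3), *Mcm4* (69.3) and *Mcm5* (68.0), with *Rrm2*, the small subunit of ribonucleotide reductase, at 81.6 and *Pcna*, the sliding clamp of DNA polymerase, at 59.7. In mitosis genes the order was *Ccnb2* (cyclin B2), *Cdc20* (64.1 RPKM), *Ube2c* (46.3), *Ccna2* (40.3), *Plk1* (38.7) and *Top2a* (33.5). Counts of *Pcna* are uncertain, since 17.4% of the reads on it and its named pseudogenes were on the pseudogenes.

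Most members were a little higher in *Prdm1*-CKO than in CTL Tfh, in S phase and mitosis alike, and no single member passed the adjusted test. The log2 fold change (*Prdm1*-CKO minus CTL) was above 0 in 42 of 52 members, with a median of 0.19, while over all 14555 genes tested 51.1% were above 0 and the median was 0.01. For S phase genes the median was 0.17 with 20 of 24 above 0, and for mitosis genes 0.20 with 22 of 28. In edgeR's quasi-likelihood test, with Benjamini-Hochberg adjustment over all genes tested, 0 members had an adjusted p under 0.05 against a background of 0% of all genes, and the value was 0.996 for 48 members and 0.998 for *Ccne1*, *Ccne2*, *Tpx2* and *Anln*. Without adjustment, 3 members (5.77%) were higher with p under 0.05 and 0 were lower, against 0.928% of all genes higher and 1.42% lower. DESeq2 also gave 0 members an adjusted p under 0.05, and its smallest for a member was 0.505. The groups did not overlap in 13 of 52 members (25%), all with the *Prdm1*-CKO mice on top, where 4.56% of all genes had that order, and 0 members had the opposite order, against 3.86%. The 13 were *Mcm3*, *Mcm7*, *Rrm1*, *Rrm2*, *Tyms*, *Uhrf1*, *Ccnb1*, *Bub1*, *Bub1b*, *Birc5*, *Hmmr*, *Tacc3* and *Cenpa*. Members of 1 program can vary together, so these counts are not taken as those of independent genes. For a single value, 3 mice against 3 cannot reach a two-sided exact permutation p below 0.1.

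**Figure D1:**
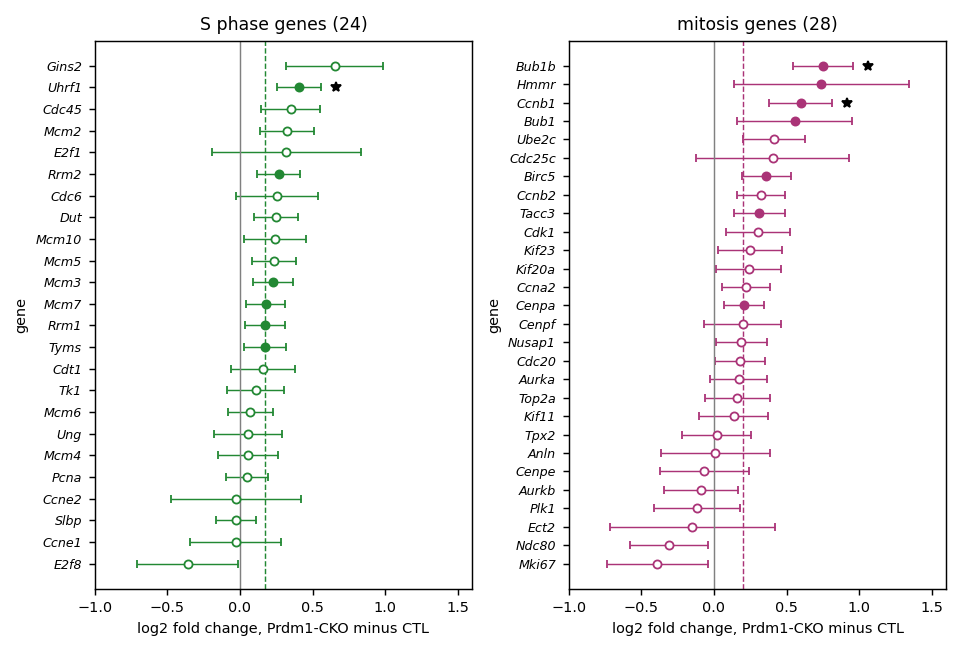
Log2 fold change (x axis, *Prdm1*-CKO minus CTL, log2 units) of the 24 S phase genes (left) and 28 mitosis genes (right), with 1 standard error as the bar; filled points are genes whose 3 *Prdm1*-CKO mice all lay above the 3 CTL mice, a star marks an unadjusted p under 0.05, and the dashed line is the list's median. Most points sit right of 0, from -0.36 (*E2f8*) to 0.65 (*Gins2*) among S phase genes and from -0.39 (*Mki67*) to 0.75 (*Bub1b*) among mitosis genes.

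Averaged over all 52 members, the *Prdm1*-CKO mice were close to each other, and they lay above the CTL mice. They were less close within each list, with an SD of 0.051 for S phase and 0.061 for mitosis genes. The mean log2 CPM over the 52 members was 6.11, 6.26 and 6.06 in CTL and 6.37, 6.39 and 6.37 in *Prdm1*-CKO mice, a difference of 0.23 with an SD of 0.10 among CTL and 0.011 among *Prdm1*-CKO mice (n = 3 each). S phase genes were at 6.26, 6.33 and 6.09 in CTL and 6.48, 6.39 and 6.40 in *Prdm1*-CKO. Mitosis genes were at 5.99, 6.20 and 6.03 in CTL and 6.27, 6.39 and 6.35 in *Prdm1*-CKO. The groups did not overlap in any of these means. For mitosis genes this rested on *Hmmr*, at -2.52 log2 units from its mean of the 6 mice in CTL mouse 2 and 0.558 in *Prdm1*-CKO mouse 1. Without *Hmmr*, the mitosis mean of CTL mouse 2 would lie above that of *Prdm1*-CKO mouse 1. On summed CPM, which the abundant genes dominate, the groups did not overlap for S phase genes (2937 to 3059 in CTL, 3110 to 3547 in *Prdm1*-CKO) and did for mitosis genes (2150 to 2869 and 2620 to 2830), where CTL mouse 2 was the highest of all.

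The balance between mitosis and S phase genes overlapped between the groups. Mitosis minus S phase, as a difference of mean log2 CPM, was -0.27, -0.14 and -0.06 in CTL mice and -0.21, -0.0017 and -0.05 in *Prdm1*-CKO mice. These ranges overlapped, and the group means differed by 0.07 with an SD of 0.11 in each group. *Prdm1*-CKO mouse 1 had the highest S phase mean and the lowest mitosis mean of its group, and *Prdm1*-CKO mouse 2 the reverse.

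**Figure D2:**
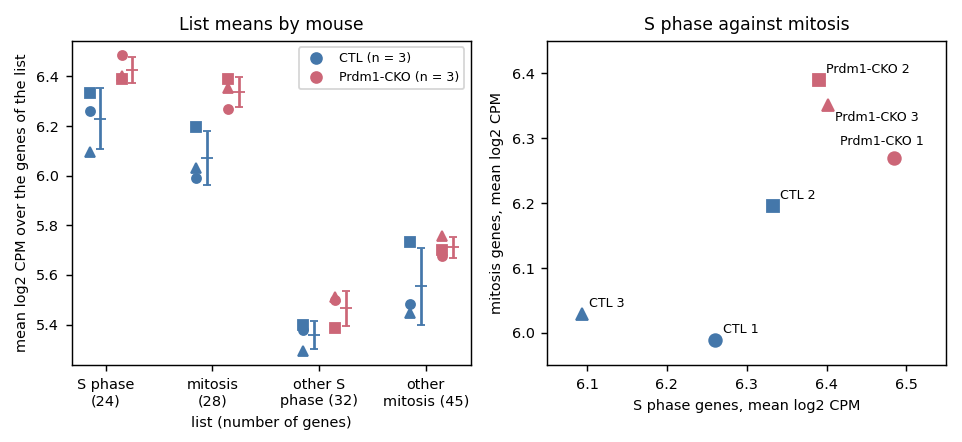
Mean log2 CPM of the S phase (24), mitosis (28) and 2 further cell cycle lists in each mouse (left; points are mice, crosses with bars are the group mean and SD, n = 3), and the mitosis mean against the S phase mean (right). The 3 *Prdm1*-CKO mice lay above the 3 CTL mice on both axes, with CTL mouse 2 nearest to them. On the mitosis axis this rested on the low *Hmmr* value of CTL mouse 2.

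Genes of the replicative helicase and of its loading were above 0 in 11 of 11 cases, with a median log2 fold change of 0.23. *Mcm3*, a subunit of the MCM2-7 ring, was at 252, 249 and 239 CPM in the CTL mice and 316, 257 and 293 CPM in the *Prdm1*-CKO mice, without overlap (log2 fold change 0.23, standard error 0.14). *Mcm6* was at 499, 428 and 507 CPM in the CTL mice and 576, 425 and 506 CPM in the *Prdm1*-CKO mice, and the groups overlapped (0.07, standard error 0.15). *Mcm5* was at 258, 229 and 262 CPM in the CTL mice and 295, 252 and 333 CPM in the *Prdm1*-CKO mice, where *Prdm1*-CKO mouse 2 lay among the CTL mice (0.23, standard error 0.15). *Mcm4* had its lowest value in CTL mouse 3 and its highest in CTL mouse 2, at 258, 296 and 179 CPM in the CTL mice and 283, 222 and 256 CPM in the *Prdm1*-CKO mice (0.05). *Gins2*, a subunit of the GINS complex that activates the helicase, had the largest log2 fold change among S phase genes, 0.65 (standard error 0.33, unadjusted p = 0.0847 in edgeR), at 13.5, 10.2 and 17.0 CPM in the CTL mice and 25.4, 24.6 and 13.9 CPM in the *Prdm1*-CKO mice. *Prdm1*-CKO mouse 3 lay below CTL mouse 3, and 2758 exonic bases of *Gins2* overlap *Gse1* on the other strand. Of the rest, *Mcm7* did not overlap between the groups, and *Mcm2*, *Mcm10*, *Cdc6* and *Cdt1*, the last a loader of the MCM ring, and *Cdc45*, which completes the active helicase, overlapped, with log2 fold changes from 0.16 (*Cdt1*) to 0.35 (*Cdc45*).

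All 5 nucleotide supply genes were above 0, with a median of 0.17, and 3 of them did not overlap. *Rrm2* was at 176, 231 and 209 CPM in the CTL mice and 247, 241 and 253 CPM in the *Prdm1*-CKO mice (0.27, standard error 0.15, unadjusted p = 0.108 in edgeR). CTL mouse 1 was the lowest and the *Prdm1*-CKO mice lay close together. *Rrm1*, the large subunit of the same enzyme, and *Tyms*, thymidylate synthase, did not overlap either, with log2 fold changes of 0.17 and 0.17. *Dut*, which removes dUTP, and *Tk1*, thymidine kinase, overlapped (0.25 and 0.11).

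*Uhrf1*, which reads hemimethylated DNA behind the fork so that Dnmt1 can copy methylation, was the S phase gene with the smallest p. Its level was 103, 96.9 and 86.1 CPM in the CTL mice and 124, 120.1 and 136 CPM in the *Prdm1*-CKO mice. Each *Prdm1*-CKO mouse was above each CTL mouse, with means of 127 ± 8.13 and 95.3 ± 8.54 CPM (SD, n = 3 each), a log2 fold change of 0.41 (standard error 0.15, unadjusted p = 0.0257 and adjusted p = 0.996 in edgeR). Its unadjusted p was over 0.05 without CTL mouse 3 and without *Prdm1*-CKO mice 1 or 3. The other fork and chromatin genes had log2 fold changes near 0. *Pcna* was at 152, 124 and 146 CPM in the CTL mice and 143, 141 and 154 CPM in the *Prdm1*-CKO mice (0.05), with overlapping groups. *Slbp*, which binds the stem-loop of histone mRNA, was at 184, 187 and 161 CPM in the CTL mice and 181, 173 and 169 CPM in the *Prdm1*-CKO mice (-0.03), and *Ung*, uracil-DNA glycosylase, had a log2 fold change of 0.06.

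E2F and cyclin E genes, which act at the G1/S border, were mixed in sign. Their log2 fold changes were 0.32 for *E2f1*, -0.36 for *E2f8*, -0.03 for *Ccne1* and -0.02 for *Ccne2*. *E2f8*, a repressive E2F, was at 20.3, 34.7 and 13.8 CPM in the CTL mice and 19.9, 16.4 and 17.3 CPM in the *Prdm1*-CKO mice. *Ccne1*, cyclin E1, was at 46.7, 74.2 and 29.9 CPM in the CTL mice and 54.8, 48.9 and 44.0 CPM in the *Prdm1*-CKO mice. In each of *E2f8*, *Ccne1* and *Ccne2* the highest mouse was CTL mouse 2 and the lowest CTL mouse 3, and without CTL mouse 2 these 3 log2 fold changes were above 0, at 0.06, 0.35 and 0.41. *Prdm1*-CKO mice lay within the CTL range for *E2f8*, *Ccne1* and *Ccne2*.

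Among mitosis genes, *Bub1b* had the largest log2 fold change and the smallest p of all 52 members. It encodes BubR1, the spindle checkpoint kinase homologue that holds back the anaphase-promoting complex, and lies on chromosome 2 of GRCm38 from 118598211 to 118641591. Its level was 77.3, 55.0 and 54.9 CPM in the CTL mice and 104, 88.8 and 122 CPM in the *Prdm1*-CKO mice. No CTL mouse reached the lowest *Prdm1*-CKO mouse, and the means were 62.4 ± 12.9 and 105 ± 16.7 CPM (SD, n = 3 each). The log2 fold change was 0.75 (standard error 0.21, unadjusted p = 0.00651 and adjusted p = 0.996 in edgeR), or 1.68-fold, and it ranked 26 by p among all genes tested. *Bub1*, the kinase that places BubR1 at kinetochores, was at 36.0, 35.3 and 11.1 CPM in the CTL mice and 41.1, 41.0 and 39.6 CPM in the *Prdm1*-CKO mice, and the gap between its groups was small beside the low value of CTL mouse 3 (0.56, standard error 0.40). *Birc5*, survivin of the chromosomal passenger complex, was at 80.6, 94.4 and 113 CPM in the CTL mice and 122, 126 and 122 CPM in the *Prdm1*-CKO mice, with a log2 fold change of 0.36 (standard error 0.17, unadjusted p = 0.0632 in edgeR).

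The other kinases of mitosis overlapped between the groups. *Plk1*, Polo-like kinase, was at 53.7, 129.9 and 82.0 CPM in the CTL mice and 78.7, 76.4 and 90.0 CPM in the *Prdm1*-CKO mice (-0.11, standard error 0.30). CTL mouse 2 was the highest of all and CTL mouse 1 the lowest. *Aurkb*, Aurora B, had the same order of CTL mice, with CTL mouse 2 highest and CTL mouse 1 lowest (-0.09), and *Aurka* overlapped (0.17). Without CTL mouse 2 the log2 fold changes of *Plk1* and *Aurkb* were 0.26 and 0.25.

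Mitotic cyclins, Cdk1 and its phosphatase were above 0 in 5 of 5, with a median log2 fold change of 0.32. *Ccnb1*, cyclin B1, on chromosome 13 from 100778650 to 100786570, was at 47.0, 39.9 and 58.4 CPM in the CTL mice and 58.9, 78.3 and 82.7 CPM in the *Prdm1*-CKO mice. The groups were separate by less than 1 CPM, with *Prdm1*-CKO mouse 1 just above CTL mouse 3. Means were 48.5 ± 9.35 and 73.3 ± 12.7 CPM (SD, n = 3 each), and the log2 fold change was 0.60 (standard error 0.22, unadjusted p = 0.0246 and adjusted p = 0.996 in edgeR). Its unadjusted p was over 0.05 without CTL mice 1 or 2 and without *Prdm1*-CKO mice 2 or 3. The named pseudogene *Ccnb1-ps*, counted apart from *Ccnb1*, took 42, 46 and 32 counts in CTL and 104, 73 and 99 in *Prdm1*-CKO mice. *Ccnb1* itself had 4440 counts over the 6 mice. *Ccnb2*, cyclin B2, was at 101, 108 and 135 CPM in the CTL mice and 133, 147 and 150.3 CPM in the *Prdm1*-CKO mice, where *Prdm1*-CKO mouse 1 lay just under CTL mouse 3 (0.32, standard error 0.16, unadjusted p = 0.0826 in edgeR). *Ccna2*, cyclin A2, was at 124, 171 and 161 CPM in the CTL mice and 182, 166 and 183 CPM in the *Prdm1*-CKO mice (0.22), and *Prdm1*-CKO mouse 2 lay below CTL mouse 2. *Cdk1* and *Cdc25c*, the phosphatase that activates Cdk1, overlapped (0.30 and 0.41, standard errors 0.22 and 0.53).

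Both members that work with the anaphase-promoting complex were above 0. *Cdc20*, its activator, was at 93.8, 129 and 114 CPM in the CTL mice and 118, 141 and 123 CPM in the *Prdm1*-CKO mice (0.18). *Ube2c*, its ubiquitin-conjugating enzyme, was at 80.9, 99.5 and 129.9 CPM in the CTL mice and 113, 155 and 144 CPM in the *Prdm1*-CKO mice (0.41, standard error 0.22). In both, CTL mouse 1 was the lowest and *Prdm1*-CKO mouse 2 the highest, and the groups overlapped.

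Spindle and motor genes were above 0 in 7 of 7, with a median of 0.24, from 0.02 for *Tpx2* to 0.74 for *Hmmr*. *Hmmr*, a spindle assembly factor singled out here after its values were seen, was at 37.8, 4.74 and 34.2 CPM in the CTL mice and 41.3, 49.3 and 37.9 CPM in the *Prdm1*-CKO mice. CTL mouse 2 was far below all other mice, while the lowest *Prdm1*-CKO mouse exceeded CTL mouse 1 by under 1 CPM, and the standard error was 0.60. *Tacc3*, which stabilizes spindle fibres, did not overlap (0.31). The motors *Kif11*, *Kif20a* and *Kif23* and the microtubule binder *Nusap1* overlapped, from 0.14 to 0.25.

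Centromere genes were split. *Cenpa*, the histone H3 variant that marks centromeres, did not overlap (0.21, standard error 0.14), *Cenpf* had a log2 fold change of 0.20, and *Cenpe* and *Ndc80* were below 0. *Ndc80*, which ties kinetochores to microtubules, was at 45.8, 85.4 and 51.0 CPM in the CTL mice and 44.7, 44.6 and 57.7 CPM in the *Prdm1*-CKO mice (-0.31, standard error 0.27). CTL mouse 2 was the highest. The cytokinesis genes *Anln* and *Ect2* had log2 fold changes of 0.01 and -0.15 with standard errors of 0.38 and 0.57, and *Ect2*, an activator of RhoA also singled out after its values were seen, spanned 40.8, 84.9 and 12.7 CPM in CTL mice, both above and below every *Prdm1*-CKO mouse.

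*Mki67*, the gene of the Ki-67 antigen that is used to score dividing cells, had the lowest log2 fold change of all members. It was at 130.3, 308 and 176 CPM in the CTL mice and 115, 216 and 139 CPM in the *Prdm1*-CKO mice, with CTL mouse 2 highest and overlapping groups (-0.39, standard error 0.35, unadjusted p = 0.291 in edgeR). Without CTL mouse 2 its log2 fold change was 0.02. *Top2a*, topoisomerase II alpha, was at 278, 381 and 196 CPM in the CTL mice and 318, 317 and 321 CPM in the *Prdm1*-CKO mice (0.16, standard error 0.23). The *Prdm1*-CKO mice were almost equal and lay inside the wide CTL range, and without CTL mouse 2 the log2 fold change was 0.42.

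**Figure D3:**
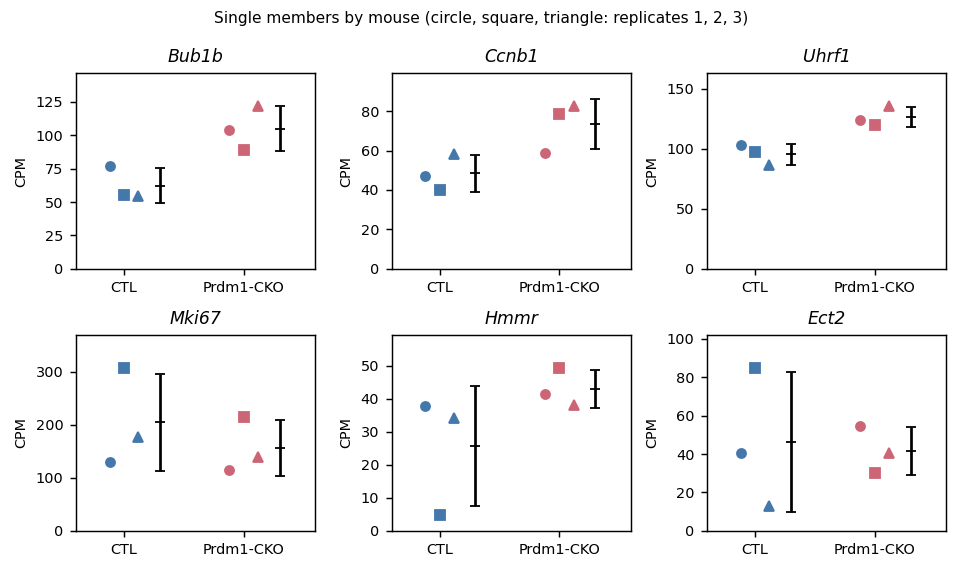
CPM (y axis, linear from 0) of *Bub1b*, *Ccnb1*, *Uhrf1*, *Mki67*, *Hmmr* and *Ect2* in each mouse, with the group mean and SD (n = 3) to the right of the points. The top row shows groups that do not overlap, and the bottom row shows genes in which CTL mouse 2 (square) was the highest (*Mki67*, *Ect2*) or the lowest (*Hmmr*) of the 6 mice.

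The spread among mice depended on the genes averaged. The SD of the mean log2 CPM was 0.12 among CTL and 0.051 among *Prdm1*-CKO mice for S phase genes, and 0.11 and 0.061 for mitosis genes, but 0.040 and 0.12 for the helicase genes. CTL mouse 2 was the highest of the 6 in 14 members (26.9%) and the lowest in 14 members (26.9%), against 27.8% and 34.9% of all genes tested. Against the mean of the 6 mice it was above in 10 of 24 S phase and 16 of 28 mitosis genes, and it was over 0.5 log2 units above in 7 mitosis genes and over 0.5 below in 5. CTL mice 1 and 3 were the lowest in 34 of 52 members and the highest in 2. Of all genes tested, CTL mouse 1 was the lowest in 11.5% and the highest in 13.7%, and CTL mouse 3 in 20.3% and 19.7%. *Prdm1*-CKO mice were the highest in 36 members (69.2%) and the lowest in 4 (7.69%), against 38.7% and 33.2% of all genes tested. *Prdm1*-CKO mouse 1 was highest in 7 S phase and 2 mitosis genes, mouse 2 in 2 and 8, and mouse 3 in 8 and 9.

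**Figure D4:**
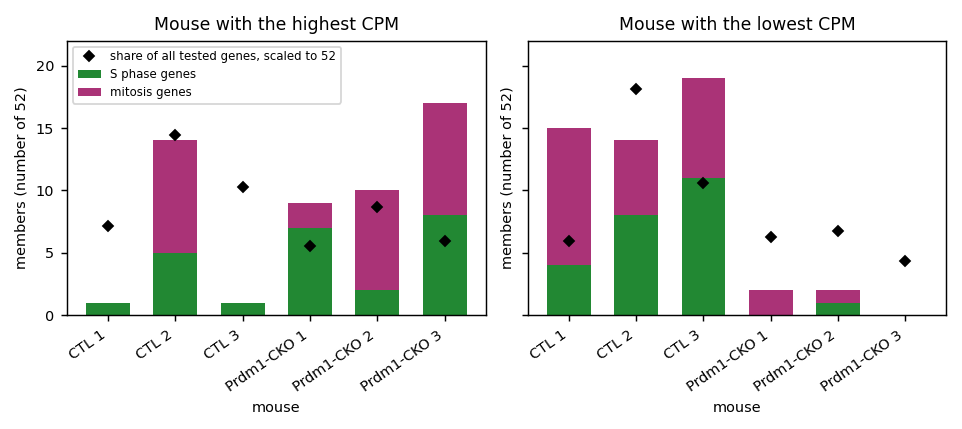
Number of members (y axis, of 52) whose highest CPM (left) or lowest CPM (right) was in each mouse, S phase and mitosis genes stacked, with diamonds for the share of all 14555 tested genes scaled to 52. The highest values were in a *Prdm1*-CKO mouse for 36 members and the lowest for 4.

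In a principal component analysis of the members over 6 mice, component 1 took 55.0% of the variance and set CTL mouse 2 (0.56) against CTL mouse 3 (-0.36), with the other mice between -0.09 and -0.01 and only 27 of 52 genes loading in the same direction. Without CTL mouse 2 the first component held 56.6%, set CTL mouse 3 (-0.43) against the other mice (0.07 to 0.18), and 40 of 52 genes loaded in the same direction. All genes tested also set these mice apart, so neither component is particular to the members. Over all 14555 genes, component 1 held 56.4% and set CTL mouse 2 (-1.12) against the other mice (0.20 to 0.24). For all genes without CTL mouse 2 it held 43.3% and set CTL mouse 3 (-0.61) against the others (0.03 to 0.27). Within groups, mitosis genes varied more than S phase genes, with a median SD of 0.31 against 0.19 log2 units, and all tested genes within the members' range of levels had 0.31. Without CTL mouse 2 these were 0.23, 0.17 and 0.24.

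Counts of members changed when CTL mouse 2 or 3 was left out, and so did those of all genes. In the other 5 mice, 48 of 52 members had a log2 fold change above 0, against 48.6% of all genes. With the same 5 mice, 21 of 52 had every *Prdm1*-CKO mouse above both CTL mice, against 7.69% of all genes, and 0 had every one below, against 8.23%. The median log2 fold change was 0.21 for S phase and 0.27 for mitosis genes. Without CTL mouse 3, 36 of 52 were above 0, against 52.9% of all genes. In that fit 8 members were higher at an unadjusted p under 0.05 and 0 were lower, against 2.14% of all genes higher and 3.94% lower.

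**Figure D5:**
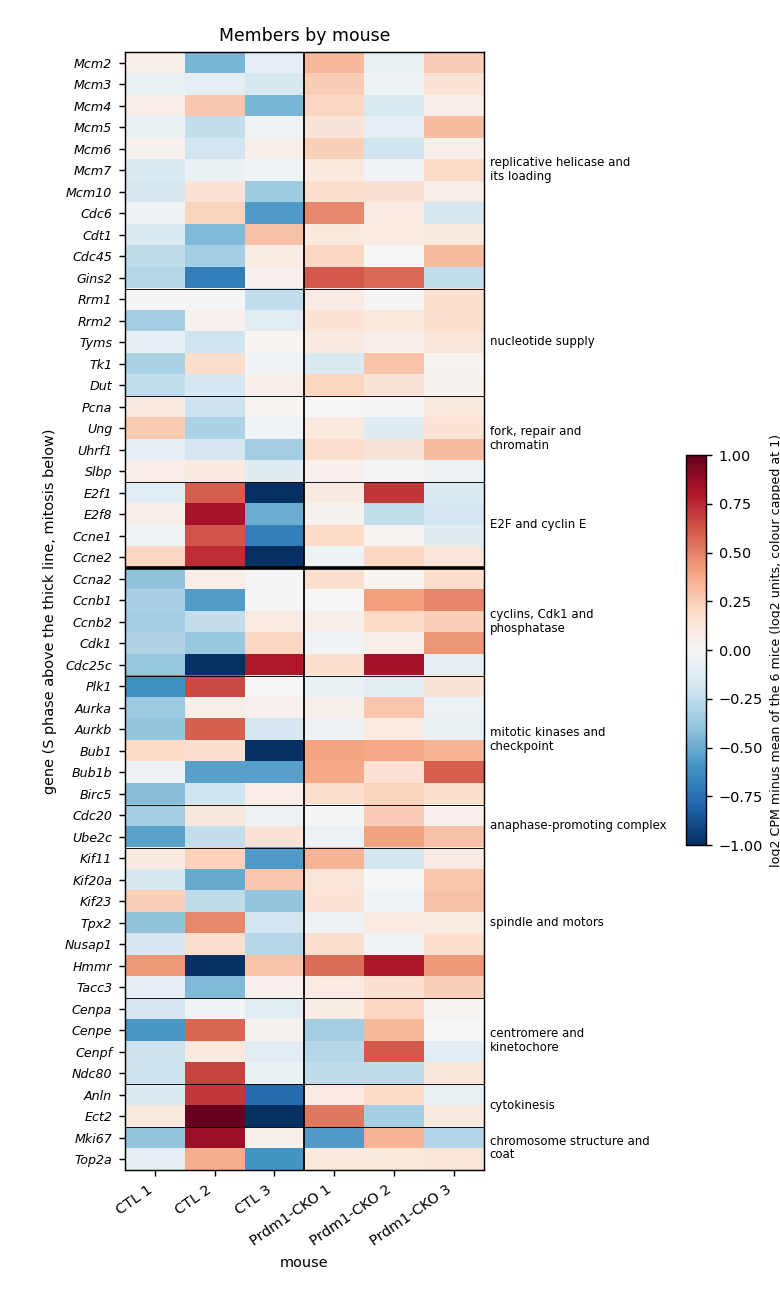
Log2 CPM minus the mean of the 6 mice (colour, log2 units, capped at 1 in either direction) for each member (rows, grouped by role, S phase above the thick line) in each mouse (columns). The right-hand columns of the *Prdm1*-CKO mice are mostly pale red, while CTL mouse 2 holds both dark red rows such as *Ect2* and *Mki67* and dark blue rows such as *Hmmr* and *Cdc25c*.

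The CHR letters were set beside the members' log2 fold changes as a description, with no test. Members with a CHR match had a median log2 fold change of 0.19 (22 genes) and members without had 0.21 (22 genes). In CTL mouse 2 the median deviation from the mean of the 6 mice was 0.07 log2 units for genes with a CHR match and -0.14 for genes without. This split is close to that of the lists, since 18 genes with a match and 5 without were mitosis genes. Among these mitosis genes the median log2 fold change was 0.19 with a match and 0.31 without. Their median deviation in CTL mouse 2 was 0.10 and -0.20.

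Cell cycle genes outside the 52 were also mostly above 0, with smaller medians. As the background for the counts in these and the later lists, 4.56% of all genes tested were higher without overlap and 3.86% lower. At an unadjusted p under 0.05 in edgeR, 0.928% of all genes were higher and 1.42% lower. Of 32 other S phase genes, 22 were above 0 with a median of 0.07, 6 did not overlap, and 2 had an unadjusted p under 0.05, both on the higher side. These were *Prim2*, the large subunit of primase, at 37.3, 28.4 and 30.5 CPM in the CTL mice and 39.2, 46.1 and 50.7 CPM in the *Prdm1*-CKO mice (0.50, standard error 0.21), and *Asf1b*, a histone chaperone, at 69.9, 73.1 and 67.0 CPM in the CTL mice and 86.1, 97.0 and 90.9 CPM in the *Prdm1*-CKO mice (0.38, standard error 0.15). In both, every *Prdm1*-CKO mouse was above every CTL mouse, as it was for *Chaf1a*, a subunit of the chromatin assembly factor (0.43). Of 45 other mitosis genes, 32 were above 0 with a median of 0.08, 6 did not overlap, and 2 had an unadjusted p under 0.05, again on the higher side. *Cenpn*, a centromere protein, was at 13.9, 8.05 and 11.8 CPM in the CTL mice and 16.2, 22.8 and 23.4 CPM in the *Prdm1*-CKO mice (0.88, standard error 0.31), and *Mad2l1*, the checkpoint protein Mad2 that acts with BubR1, was at 60.4, 43.5 and 70.0 CPM in the CTL mice and 76.5, 80.1 and 86.1 CPM in the *Prdm1*-CKO mice (0.48, standard error 0.21). *Cdca8*, borealin, which sits in 1 complex with *Birc5*, had a log2 fold change of 0.36 without overlap. Both counts at an unadjusted p under 0.05 changed when a mouse was left out. That of other S phase genes was 0 without *Prdm1*-CKO mouse 2 or 3 and 1 without any of the other mice. That of other mitosis genes was 0 without *Prdm1*-CKO mouse 2 or 3, 1 without CTL mouse 1 or *Prdm1*-CKO mouse 1, 4 without CTL mouse 2 and 5 without CTL mouse 3.

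Regulators of the cycle were nearly evenly split in sign, while their mean log2 CPM was higher in *Prdm1*-CKO mice and their summed CPM was not. Of 37 tested, 19 were above and 18 below 0, and the median log2 fold change was 0.02. Their mean log2 CPM was 5.35, 5.41 and 5.40 in CTL and 5.48, 5.63 and 5.50 in *Prdm1*-CKO mice, without overlap, a difference of 0.15. The 22 inhibitors among them were at 5.07, 4.93 and 5.01 in CTL and 5.23, 5.36 and 5.20 in *Prdm1*-CKO mice, also without overlap (difference 0.26), with 13 of 22 above 0. The 15 activators overlapped (difference -0.01). So did the summed CPM of the regulators, with means of 3594 in CTL and 3531 in *Prdm1*-CKO mice. A mean of log2 CPM gives low genes the weight of abundant ones. *Cdkn2b*, an inhibitor at 0 counts in CTL mice 2 and 3, had the highest log2 fold change of the regulators, 1.58 (standard error 1.28). The number higher at an unadjusted p under 0.05, which was 1, became 5 without CTL mouse 1, 0 without CTL mouse 2 or *Prdm1*-CKO mice 1 or 3, and 2 with voom. *Foxm1* and *Mybl2*, the activators of mitosis genes, had log2 fold changes of -0.25 (standard error 0.39) and 0.22 (standard error 0.40), and *Foxm1* had its highest level in CTL mouse 2, at 15.8, 40.2 and 16.9 CPM in CTL and 17.0, 21.6 and 22.7 CPM in *Prdm1*-CKO mice. Log2 fold changes were -0.02 for *Myc*, 0.10 for *Ccnd1*, -0.18 for *Ccnd2* and -0.12 for *Ccnd3*, the D cyclins that drive G1. *Ccnd2* was the most abundant of the D cyclins per length, at 49.5 RPKM, with *Ccnd3* at 37.5 and *Ccnd1* at 2.32. CDK inhibitors had log2 fold changes of 0.44 (*Cdkn1a*), -0.07 (*Cdkn1b*), -0.25 (*Cdkn2c*) and 0.17 (*Cdkn2d*), of which *Cdkn2d* did not overlap between the groups. *Cdkn2b* was at 1.44, 0 and 0 CPM in CTL and 1.47, 2.54 and 0.890 CPM in *Prdm1*-CKO mice, with overlapping groups, and *Cdkn1c* and *Cdkn2a* did not pass the expression filter. The 1 regulator higher at an unadjusted p under 0.05 was *Tob1*, an antiproliferative gene of resting T cells, at 17.3, 11.8 and 11.5 CPM in the CTL mice and 25.4, 19.4 and 21.1 CPM in the *Prdm1*-CKO mice (0.69, standard error 0.28). *Rbl1*, the pocket protein p107, and *Gmnn*, geminin, which blocks MCM loading after S phase, came next by p (0.47 and 0.46), with overlapping groups.

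Markers of other cells that the sort could hold were in the same fit, and 0 of them had an adjusted p under 0.05 in edgeR. All 12 B cell markers had a log2 fold change above 0 (median 0.75), and their summed CPM was 798 to 2392 in CTL and 2114 to 3459 in *Prdm1*-CKO mice. *Pax5*, *Ebf1* and *Fcer2a* were at 0 in CTL mouse 2. That mouse, which stood apart over all genes, was the lowest for B cell markers. Its summed CPM of the 52 members was the highest among CTL mice, 5901 against 5209 and 5249. Between the groups, B cell markers and most members were both higher in *Prdm1*-CKO mice. Plasma cell markers were above 0 in 6 of 6 (304 to 484 CPM in CTL and 464 to 730 in *Prdm1*-CKO), and macrophage and dendritic cell markers in 10 of 12 (2379 to 5001 and 4072 to 4910). Germinal center B cell markers summed to 61.4 to 76.3 CPM in CTL and 59.2 to 69.0 in *Prdm1*-CKO mice, and of the 8 genes *Gcsam*, *Rgs13* and *Mybl1* did not pass the filter. Erythroid markers summed to 46.8 to 77.2 CPM in CTL and 38.2 to 107 CPM in *Prdm1*-CKO mice, with the transferrin receptor gene *Tfrc* at 25.1 to 68.2 CPM (-0.48). Of the 6 tested, 5 were above 0, and the globin genes *Hbb-bs* (1.88), *Hbb-bt* (1.76) and *Hba-a1* (1.29) were higher at an unadjusted p under 0.05. *Hbb-bs* was at 3.49, 3.55 and 9.77 CPM in CTL and 32.2, 7.12 and 21.8 CPM in *Prdm1*-CKO mice, with overlapping groups. CD8 and NK cell markers were at 233 to 320 CPM in CTL and 205 to 226 CPM in *Prdm1*-CKO mice, with 2 of 8 above 0 and 2 lower at an unadjusted p under 0.05. Regulatory T cell markers, from cells that the sort retained, were at 928 to 1006 and 813 to 918 CPM, and Tfh and T cell markers at 4556 to 5739 and 4655 to 4830. The part of any of these cells in the members' values was not tested.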

How the data were processed

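Sorted splenic Tfh cells from 3 mice in each group gave 1 Smart-seq2 library per mouse, read as short pairs. The authors aligned reads to GRCm38 with GENCODE, with STAR 2.4.2a in the submitters' processing notes, counted them per gene with featureCounts, and deposited raw counts without normalization. Strand, multiple alignment and mate settings were not given in the sources used here. Unstranded counting would mix genes that overlap, and 16 members share exonic bases with another gene. Identifiers were matched without version to GENCODE M21 on GRCm38 (53274 of 53379).

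Total counts were 7147601 to 16973392 per mouse, so 3 counts, taken as the floor, correspond to 0.169 to 0.444 CPM after TMM scaling, for counting error only. edgeR 4.0.16 in R 4.3.3 was run with filterByExpr, TMM and the quasi-likelihood test, 3 against 3 mice, without covariates, two-sided, and p was adjusted by Benjamini-Hochberg over 14555 genes. Log2 CPM used a prior count of 2. Genes whose groups do not overlap have all 3 mice of one group above all 3 of the other. The scripts were tested on simulated data. Alternatives were DESeq2 1.42.0 size factors, its Wald test, voom with sample quality weights in limma 3.58.1, a replicate block, no filter, a filter of 10 counts or more in each mouse, the most abundant gene left out, a prior count of 0.5, and each mouse left out. The labels describe separate mice and give no batch. Replicate numbers were not taken to pair the mice.

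Members, lists, motifs and the naming rule were chosen with earlier results of these data known. All members are named, and values in each mouse are given for those at an unadjusted p under 0.05, the 6 with the highest mean RPKM in each list, and the 3 with the smallest p in each direction in each list. *Bub1*, *Hmmr* and *Ect2* were added after their values were seen. Of the other lists, named genes are those at an unadjusted p under 0.05, the 3 with the smallest p, and the cyclins D, CDK inhibitors, *Myc*, *Foxm1* and *Mybl2*. Promoters are RefSeq sequences on GRCm38.p6.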

Additional observations from a re-analysis of the deposited data

How the results depend on the processing

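The shift of the members kept its direction under every alternative: the median log2 fold change of the 52 members was 0.16 to 0.26, that of S phase genes 0.13 to 0.21 and that of mitosis genes 0.15 to 0.28, and 36 to 48 members were above 0. No member had an adjusted p under 0.05 in any alternative, and the smallest was 0.505, in DESeq2. The members higher at an unadjusted p under 0.05 numbered 3 in the reported fit, 8 with voom and sample quality weights, and 2 to 8 when a mouse was left out, with 8 without CTL mouse 3. None was lower in any of these fits. *Bub1b* kept an unadjusted p from 0.00201 to 0.0367 in all 13 alternatives. *Uhrf1* lost it with the replicate block. Over all genes, adjusted calls were 7 higher and 2 lower in DESeq2, 1 higher without a filter, and 0 when a mouse was left out. Unadjusted calls were 264 higher and 417 lower in DESeq2, 268 higher with voom, 426 and 510 without a filter, and 58 to 580 higher and 107 to 617 lower when a mouse was left out. Over the alternatives, genes at an unadjusted p under 0.05 numbered 0 to 2 higher and 0 to 1 lower among other S phase genes, 0 to 5 higher among other mitosis genes, and 0 to 5 higher and 0 to 1 lower among regulators, and the other S phase genes had 0 without a filter and with the replicate block. Mitosis minus S phase kept its sign, at 0.012 to 0.132 when a mouse was left out.

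Signs changed as follows, and the cause was not tested. With voom, *Ung* was at -0.022, *Ccne1* 0.13, *Ccne2* 0.17, *Plk1* 0.30, *Aurkb* 0.16, *Cenpe* 0.20, *Ect2* 0.36, *Myc* 0.075, *Foxm1* 0.17 and *Cdkn2c* 0.057. Without a filter *Myc* was at 0.0025, and with at least 10 counts in every mouse the median of all genes was -0.0062. When a mouse was left out, 26 of the named genes changed sign in at least 1 fit. Ranges of these log2 fold changes over the 6 fits were, for S phase genes, *Mcm4* -0.12 to 0.21, *Mcm6* -0.032 to 0.19, *Cdt1* -0.011 to 0.38, *Tk1* -0.025 to 0.22, *Pcna* -0.044 to 0.095, *Ung* -0.082 to 0.20, *Slbp* -0.081 to 0.0058, *E2f1* -0.014 to 0.80, *E2f8* -0.61 to 0.056, *Ccne1* -0.28 to 0.35 and *Ccne2* -0.39 to 0.41. For mitosis genes they were *Plk1* -0.39 to 0.26, *Aurkb* -0.29 to 0.25, *Kif11* -0.059 to 0.29, *Tpx2* -0.16 to 0.31, *Cenpe* -0.33 to 0.25, *Cenpf* -0.11 to 0.37, *Ndc80* -0.49 to 0.0072, *Anln* -0.26 to 0.48, *Ect2* -0.58 to 0.62, *Mki67* -0.68 to 0.016 and *Top2a* -0.039 to 0.42. For regulators they were *Myc* -0.14 to 0.11, *Foxm1* -0.49 to 0.31, *Mybl2* -0.051 to 0.52 and *Cdkn1b* -0.17 to 0.034. The median of all genes was at -0.0099 to 0.035.

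The replicate numbers name different animals, and the labels give no pairing. Deviations of same-numbered mice correlated at 0.158, 0.0282 and 0.016, and those of differently numbered mice at -0.131 to 0.0829. These few values cannot decide whether the numbers pair the mice, and the reported fit took them as unpaired. With the replicate number as a block, 3 members were higher at an unadjusted p under 0.05, and *Ccne1* (0.062), *Ccne2* (0.15) and *Ect2* (0.19) changed sign. The median standard error of a member was 0.216, above the median log2 fold change of 0.19, and the standard errors of *E2f1*, *Cdc25c*, *Hmmr* and *Ect2* were above 0.5.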
